A study of Mus musculus with 5 samples.

Results

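The Id genes Id1, Id2 and Id3 and the genes of bone morphogenetic protein (BMP) signalling Bmp4, Bmpr1a, Bmpr2, Smad1, Smad5 and Smad6 were examined in mouse embryonic stem (ES) cells with and without C3G, the guanine nucleotide exchange factor encoded by Rapgef1. These 9 genes were chosen by name out of 55147 gene symbols, for their place in the pathway and with earlier results of these data known. All 9 had enough signal to be tested. The cells were E14Tg2a, a mouse ES cell line, grown on gelatin in medium with serum and LIF and with no further treatment. Total RNA was sequenced with paired ends from 3 samples of the parent cells (WT) and 2 samples of C3G null cells (C3G-/-). In the null cells a puromycin cassette had been knocked in by CRISPR in place of early exons of Rapgef1, and resistant colonies were picked and grown as clones. Which clone gave each null sample is not given in the sources used here. The WT samples were the unselected parent cells, so selection, cloning and genotype cannot be told apart. The study calls the samples of each group independent, but neither it nor the labels say whether they were separate cultures or clones, so the p-values measure the spread between these samples only.

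BMP ligands such as BMP4 bind pairs of type I and type II serine/threonine kinase receptors, among them BMPR1A and BMPR2, which phosphorylate SMAD1 and SMAD5. With SMAD4 these enter the nucleus and raise transcription of target genes, of which the Id genes are the best known, while SMAD6 and SMAD7 hold the pathway back. Id proteins carry a helix-loop-helix without the basic region that contacts DNA, and so bind E proteins and keep them from pairing with differentiation factors. In mouse ES cells, BMP4 or serum acting through Id proteins sustains self-renewal together with LIF.

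Expression was given by the authors as TPM, the abundance of a transcript relative to all transcripts of its sample with its length taken into account, summed here per gene, and read depth is unknown. Small RNA genes took 63.1% to 67.5% of the TPM of the WT samples but 78.4% and 69.8% of the null samples, which leaves less TPM for all other genes of the null samples. Each gene is therefore given with the TPM as deposited and again with each sample scaled by the median of ratios, which divides all values of a sample by the typical ratio of its genes to their geometric means over the samples. Tests used limma on log2(TPM + 1) over 12518 genes, with the Benjamini-Hochberg adjusted p called below 0.05, and the fold changes on that scale understate the change of weakly expressed genes. As deposited, the fit took the variance of each gene wholly from the trend over all genes. The p-values as deposited therefore give no weight to a gene's own spread between samples. The same held for the fits as deposited without a WT sample or with a replicate block. In null cells the log2 fold changes of the 12518 genes had a median of -0.55 as deposited and 0.0052 after scaling. Rapgef1 itself, whose gene total includes exons outside the replaced part, read 11.56, 10.31 and 9.64 TPM in WT and 3.92 and 5.55 TPM in null samples. Its scaled log2 fold change was -0.41 (adjusted p = 0.00444, limma). Once each sample was corrected for GC content and transcript length it was -0.15 (limma adjusted p = 0.153). Over all tested genes the scaled log2 fold change fell with transcript length, with a Spearman correlation of -0.31 before that correction and 0.0086 after it. Of 8 ES cell markers, 0 were lower in null cells under either scaling, and 1 (Dppa5a) was higher after scaling but not as deposited, nor without either null sample. Their summed TPM was 2223 to 2345 in WT and 1771 and 2311 in null samples as deposited, and 1665 to 2079 in WT and 2862 and 2551 in null samples after scaling, so that its direction turned with the scaling.

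The 3 Id genes are separate loci that share the helix-loop-helix. The stretch of 90 coding bases most alike among them is shown in GRCm38, with capitals for the 57 bases (63.3%) identical in all 3, because it bears on whether reads of the 3 genes could be confused. Id1 is read from chr2:152736519-152736608 on the plus strand, Id2 from chr12:25095812-25095901 on the minus strand and Id3 from chr4:136144003-136144092 on the plus strand.
Id1: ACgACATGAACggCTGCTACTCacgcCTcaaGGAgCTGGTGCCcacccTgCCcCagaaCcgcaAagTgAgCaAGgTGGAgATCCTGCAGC
Id2: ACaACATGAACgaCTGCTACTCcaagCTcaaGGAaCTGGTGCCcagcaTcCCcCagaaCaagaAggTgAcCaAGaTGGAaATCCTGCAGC
Id3: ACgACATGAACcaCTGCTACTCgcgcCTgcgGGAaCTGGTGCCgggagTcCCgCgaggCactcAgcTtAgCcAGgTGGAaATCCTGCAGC
Over the coding bases that aligned without a gap, Id1 and Id2 were 64.3% identical (378 bases), Id1 and Id3 60.5% (354 bases), and Id2 and Id3 58.8% (340 bases). The longest run shared by their transcripts was 11, 12 and 19 bases for the same pairs, so an unbroken match longer than 19 bases belonged to 1 of the 3 genes.

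The Id genes were lower in C3G null cells in every sample and under both scalings, and Id1, the most abundant of the 9 genes in WT cells, fell most among them. Id1 (GRCm38 chr2:152736251-152737410, plus strand) read 26.38, 28.81 and 24.11 TPM in WT and 3.65 and 4.95 TPM in null samples. Both null samples lay far below every WT sample. WT cells averaged 26.4 ± 2.35 TPM (SD, n = 3) and null cells 4.30 ± 0.919 TPM (SD, n = 2), 6.15-fold lower as deposited and 3.83-fold lower after scaling. On the log2(scaled TPM + 1) scale Id1 fell by 1.76 (SE 0.0894, limma adjusted p = 0.000194). These are bulk samples, in which fewer cells of a type and less RNA per cell cannot be told apart.

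Id2 (chr12:25093799-25097140, minus strand), at the lowest level of the 3, read 10.95, 11.60 and 10.16 TPM in WT and 1.76 and 2.96 TPM in null samples. Its scaled log2 fold change was -1.30 (SE 0.0867, limma adjusted p = 0.000419), a 2.94-fold lower mean. Id3 (chr4:136143497-136145755, plus strand) read 16.53, 17.11 and 15.62 TPM in WT and 3.91 and 5.76 TPM in null samples. The groups of Id2 and Id3 did not overlap. After scaling, the null samples of Id3 were nearly equal at 6.32 and 6.36, against 12.4, 14.03 and 14.1 in WT. Id3 fell by 0.98 on the log2 scale (SE 0.0770, limma adjusted p = 0.000578), a 2.13-fold lower mean. Id4, the other member of the family, stayed at or under 0.42 TPM in every sample and was not tested.

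The Id genes did not fall in equal measure. The ratio of Id1 to Id3 within a sample, which no scaling of a sample can change, averaged 1.61 ± 0.0709 in the 3 WT samples and 0.896 ± 0.0524 in the 2 null samples (± SD). Id1 was thus above Id3 in every WT sample and below it in both null samples. With 3 samples against 2 the exact two-sided permutation test over samples gave p = 0.2, the smallest that its 10 splits allow. The ratio of Id1 to Id2 was 2.42 ± 0.0564 in WT and 1.87 ± 0.284 in null cells, again without overlap (exact permutation p = 0.2).

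The main transcript of each Id gene moved with the gene. The main protein-coding transcript of Id1, with 92.6% of the Id1 TPM in WT and 92.9% in null cells, read 23.82, 27.17 and 22.48 TPM in WT and 3.39 and 4.60 TPM in null samples. The share held by this transcript was nearly the same in both groups. Over the 6 Id transcripts with a WT mean of at least 1 TPM, the scaled null mean was 25.5% to 56.5% of the WT mean. The highest value was that of a retained intron form of Id3, and the lowest that of the minor transcript of Id1.

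**Figure D1:**
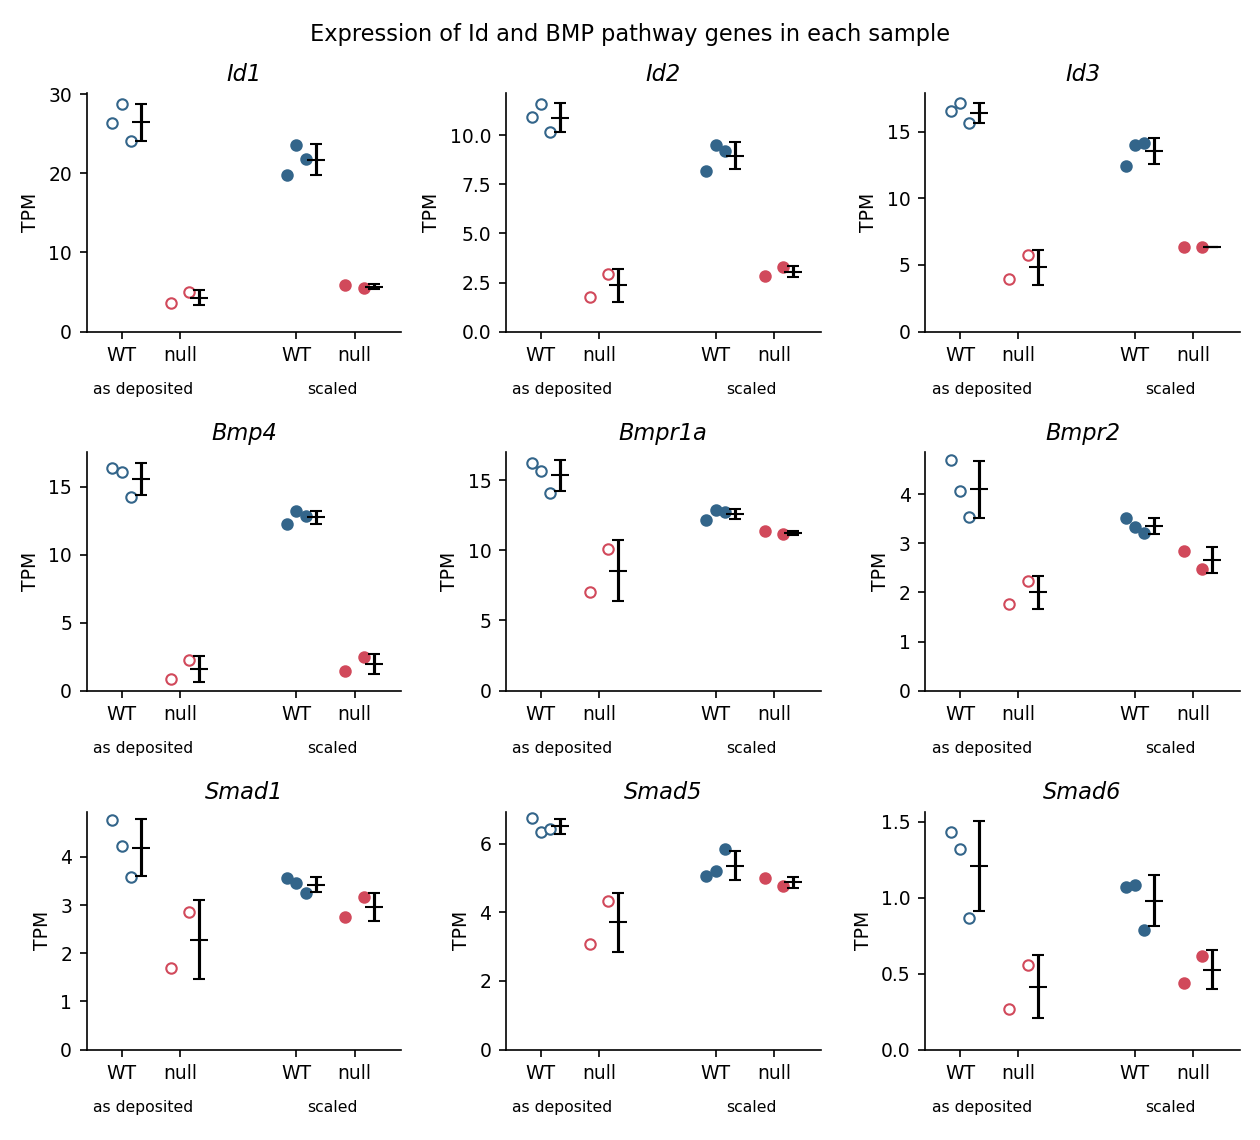
TPM of each of the 9 genes in 3 WT (blue) and 2 C3G null (red) samples, as deposited (open points, left) and after median-of-ratios scaling (filled points, right), with the mean and SD beside each group and each axis starting at 0. Id1, Id2, Id3 and Bmp4 are separated widely under both scalings, whereas scaling brings the null samples of Bmpr1a, Smad1 and Smad5 close to WT.

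In all, 9 of the 9 genes were lower in null cells with the TPM as deposited, where 56.8% of all tested genes were lower and 1.45% higher. That count moved when a sample was left out, since as deposited it was 6 without WT 1 and 5 without WT 2. The shares of all tested genes in those fits were not counted, so the drop may not be particular to these genes. After scaling, 5 of the 9 (Id1, Id2, Id3, Bmp4 and Smad6) were lower and 0 higher, where 16.6% of all tested genes were lower and 14.1% higher. Of these, Smad6 passed the expression filter through the WT samples alone, so its call lends no support, and it was lost with the length and GC correction. The other 4 (Bmpr1a, Bmpr2, Smad1 and Smad5) did not pass. Both null samples of all 9 genes lay below every WT sample after scaling, which 29.3% of all tested genes also did, and 75.7% did as deposited. The median scaled log2 fold change of the 9 genes was -0.37, against 0.0052 for all tested genes. The plot of fold changes shows that the calls lost by scaling are those of the receptors and receptor-activated SMADs.

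**Figure D2:**
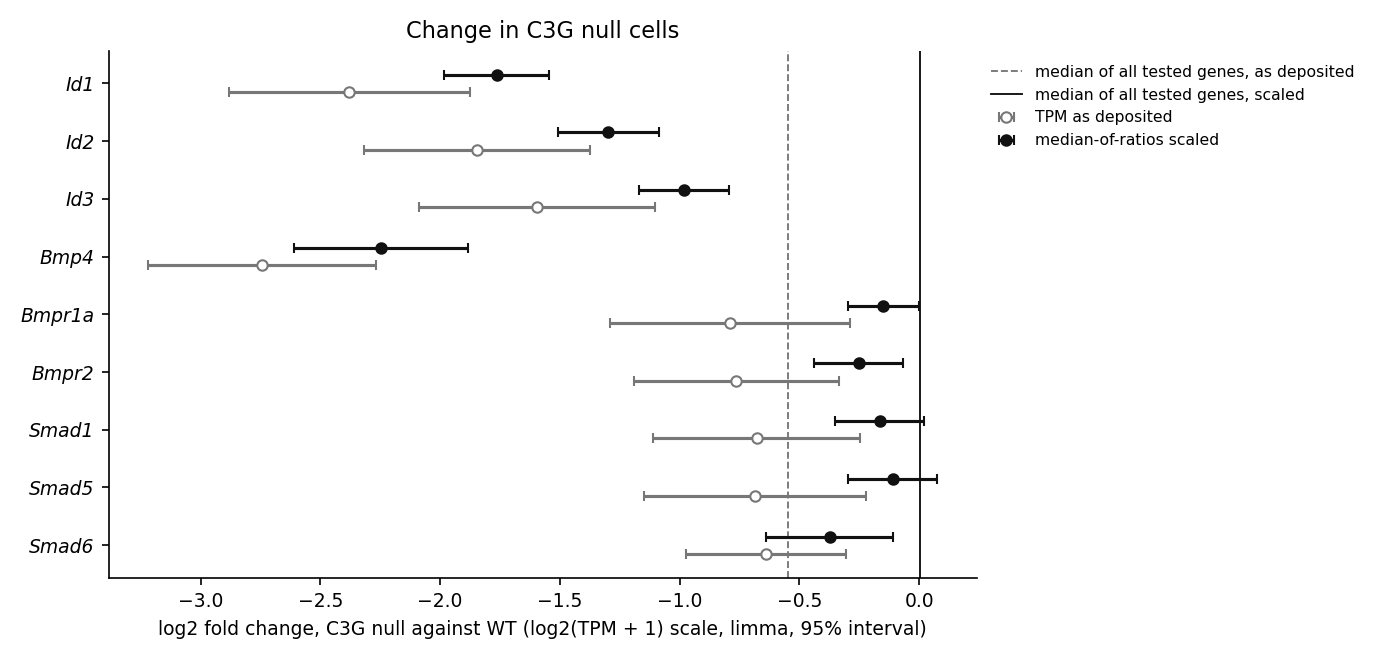
Log2 fold change of each gene in C3G null against WT cells on the log2(TPM + 1) scale with its 95% interval (limma), as deposited (open) and scaled (filled), with vertical lines at the medians over all tested genes. Id1, Id2, Id3 and Bmp4 lie between -2.25 and -0.98 after scaling, and the intervals of Smad1 and Smad5 cross 0.

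Among the ligands, Bmp4, a BMP that ES cells make themselves, had the largest fall of the 9 genes. Bmp4 (chr14:46383520-46390669, minus strand) read 16.34, 16.07 and 14.21 TPM in WT and 0.88 and 2.24 TPM in null samples. The higher null sample was still far below the lowest WT sample, although in proportion the null samples differed from each other more than for any Id gene. WT cells averaged 15.5 ± 1.16 TPM (SD, n = 3) and null cells 1.56 ± 0.962 TPM (SD, n = 2), 9.96-fold lower as deposited and 6.55-fold lower after scaling. Bmp4 fell by 2.25 on the scaled log2 scale (SE 0.149, limma adjusted p = 0.000416), and 26 of the 12518 tested genes had a lower fold change. Its 3 transcripts with a WT mean of at least 1 TPM fell together, to 12.5% to 19.8% of the scaled WT mean. The most abundant of them, which is protein-coding, read 7.67, 7.84 and 6.61 TPM in WT and 0.46 and 0.91 TPM in null samples.

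Of 15 BMP ligand genes, the other 2 tested were Bmp8b and Bmp8a, and both were lower after scaling. Bmp8b, a ligand known from germ cell induction, read 2.85, 2.43 and 2.2 TPM in WT and 0.32 and 0.39 TPM in null samples, a scaled log2 fold change of -1.05 (limma adjusted p = 0.000477). Bmp8a had a scaled log2 fold change of -0.36 (limma adjusted p = 0.0220), which the correction for GC content and length moved to -0.23 (adjusted p = 0.101). Without any one of 4 of the 5 samples, WT 3 being the exception, the adjusted p of Bmp8a was also above the threshold. Both Bmp8 genes passed the expression filter through the WT samples alone, so their count lends no support. Their sequences were not compared here, so reads may be split between the pair. The remaining 12 ligand genes, which include Bmp2 and Bmp7, stayed at or under 0.67 TPM in every sample.

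Bmp4 lies on chromosome 14 at one end of a stretch in which most tested genes were lower in null cells. Within 5 Mb of Bmp4, 35 of 43 tested genes (81.4%) were lower after scaling, with a median log2 fold change of -0.61. From Bmp4 to 20 Mb after it on the plus-strand coordinate 138 of 164 (84.1%) were lower, and in the 2 Mb before it 6 of 8 (75.0%) were. Farther before it, from 2 to 20 Mb, 5 of 60 (8.33%) were lower and 11 were higher. Over the whole of chromosome 14, Bmp4 and Bmpr1a left out, 249 of 439 (56.7%) were lower, against 1833 of 12077 (15.2%) on the other chromosomes. The 10 nearest tested protein-coding genes, 5 on each side, were Psmc6, Styx, Gnpnat1, Fermt2 and Ddhd1 before Bmp4 and Cdkn3, Cnih1, Gmfb, Cgrrf1 and Samd4 after it. All 10 were lower, with log2 fold changes of -1.42 (Samd4) to -0.58 (Gnpnat1) and a median of -0.76. Samd4 and Cgrrf1 passed the expression filter through the WT samples alone, so their being lower lends no support, and the other 8 lay between -1.02 (Fermt2) and -0.58. Without all genes that passed the filter in this way, 28 of 33 (84.8%) were lower within 5 Mb of Bmp4, 190 of 359 (52.9%) on chromosome 14 and 1358 of 10803 (12.6%) on the other chromosomes. On the log2(scaled TPM + 1) scale Bmp4 itself, at -2.25, was below them all. On that scale 0 of the other tested genes of chromosome 14 reached its value, the lowest of them being at -1.91. As a ratio of scaled means the order differed, since Samd4, at 0.05 and 0.13 TPM in null samples, was 17.7-fold lower and Bmp4 6.55-fold lower. The part of this stretch in the fall of Bmp4 was not tested.

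Bmpr1a lies on the same chromosome outside that stretch, and its neighbours differ from those of Bmp4. Within 5 Mb of Bmpr1a 3 of 47 tested genes (6.38%) were lower, with a median of 0.014. The Id genes are on other chromosomes, where 15 of 110 genes (13.6%) were lower within 5 Mb of Id1, 3 of 41 (7.32%) within 5 Mb of Id2 and 25 of 125 within 5 Mb of Id3.

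**Figure D3:**
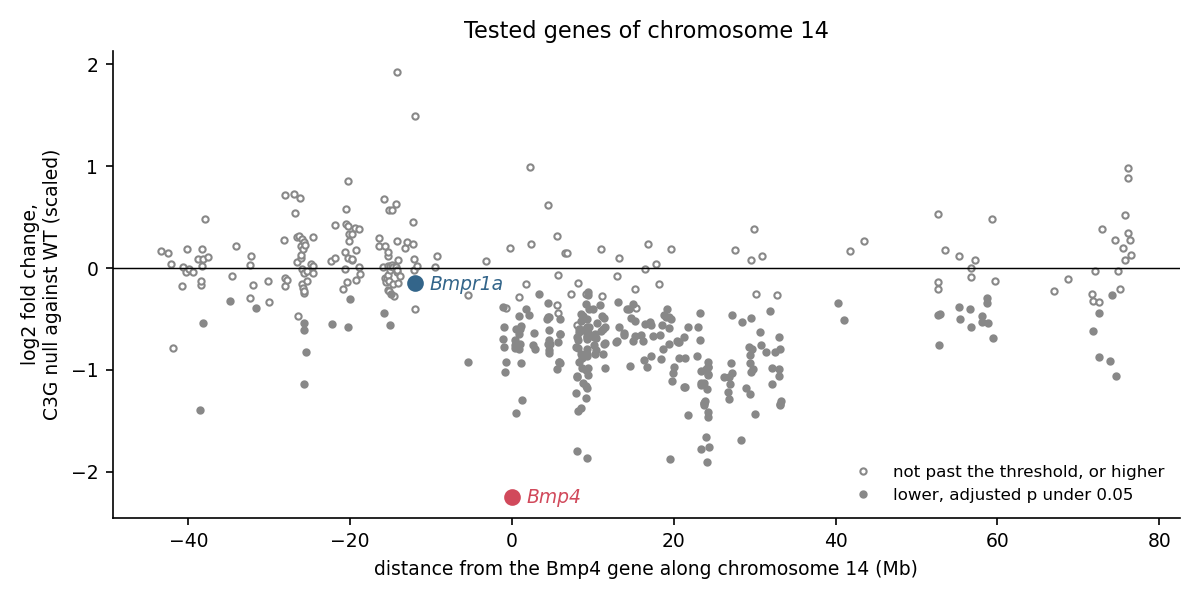
Scaled log2 fold change in C3G null against WT cells of each tested gene of chromosome 14, by its distance from Bmp4 in Mb, with genes called lower filled and Bmp4 and Bmpr1a in colour. Bmp4 is the lowest point at -2.25 and stands at the near end of a run of lowered genes, while Bmpr1a, at -0.15, lies among genes around 0.

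RefSeq (GRCm38.p6) gave windows upstream of the annotated start for 8 of the 9 genes, all but Id1. They are shown, with 1 motif in capitals, for Bmp4 and Id2, which were among the 4 genes with the largest falls and whose windows have bases outside every exon, namely the whole 250 bases for Bmp4 and the outermost 89 for Id2. GGCGCC is a GC-rich element bound by SMAD1 and SMAD5 in Id promoters, and CACGTG is an E-box of the kind bound by helix-loop-helix proteins. Motifs were searched on both strands over the 250 bases before the start, and none of the matches overlapped another. Id2 is shown from chr12:25096254-25096342 (minus strand), with GGCGCC beginning 231 bases before the start, and Bmp4 from chr14:46390670-46390919 (minus strand), with CACGTG beginning 188 bases before it.
Id2: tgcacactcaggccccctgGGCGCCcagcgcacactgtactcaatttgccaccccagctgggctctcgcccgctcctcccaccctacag
Bmp4: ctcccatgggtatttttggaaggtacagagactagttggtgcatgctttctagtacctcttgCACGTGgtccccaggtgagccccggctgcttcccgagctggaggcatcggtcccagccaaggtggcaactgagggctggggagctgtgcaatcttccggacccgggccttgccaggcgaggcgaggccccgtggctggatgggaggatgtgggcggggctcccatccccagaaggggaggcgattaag
GGCGCC occurred in the windows of Id2, Smad5, Bmpr1a and Bmpr2, and in 9.59% of 32851 promoters. It was thus found before both a gene that fell and genes that did not pass. GTCTG, the SMAD-binding letters, occurred in the windows of Id3 and Smad5 and in 42.2% of promoters, and CACGTG in that of Bmp4 and in 6.02%. CCAAT, the letters of a common promoter element, occurred in the windows of Id2, Bmpr1a, Smad1 and Smad5 and in 33.8%. These matches describe letters in a window and are not measured sites.

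The receptors changed little beside the Id genes once the samples were scaled. Bmpr1a (chr14:34410734-34503341, minus strand), the type I receptor, read 16.26, 15.68 and 14.07 TPM in WT and 7.02 and 10.10 TPM in null samples. After scaling it read 12.2, 12.9 and 12.7 in WT and 11.3 and 11.1 in null samples, still without overlap but close. Its scaled log2 fold change was -0.15 (95% interval -0.30 to -0.0025, limma adjusted p = 0.11), against -0.79 as deposited (adjusted p = 0.00706). Bmpr2 (chr1:59763400-59879014, plus strand), the type II receptor, read 4.70, 4.06 and 3.54 TPM in WT and 1.76 and 2.24 TPM in null samples. Scaled, it missed the threshold narrowly at -0.25 (95% interval -0.44 to -0.07, limma adjusted p = 0.0512), and as deposited it was -0.76 (adjusted p = 0.00237). With scaling factors from genes outside chromosome 14 it just passed, at -0.26 (limma adjusted p = 0.0472).

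The list of receptors and co-receptors held 12 genes, of which 7 were tested. After scaling 2 of the 7 were lower, where 16.6% of all tested genes were. Eng, which encodes the co-receptor endoglin, read 14.34, 12.45 and 10.38 TPM in WT and 3.64 and 4.43 TPM in null samples, a scaled log2 fold change of -0.80 (limma adjusted p = 0.00227). Rgmb, a membrane-anchored BMP co-receptor of the repulsive guidance family, read 3.55, 3.15 and 2.74 TPM in WT and 0.92 and 1.40 TPM in null samples, a change of -0.51 (limma adjusted p = 0.00339). Neither group of values overlapped.

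Of the SMADs that carry the signal, 0 of the 3 tested passed after scaling. Smad1 (chr8:79338395-79399518, minus strand) read 4.76, 4.22 and 3.59 TPM in WT and 1.70 and 2.86 TPM in null samples. Scaled, it was 3.57, 3.46 and 3.25 against 2.75 and 3.16, a log2 fold change of -0.16 (95% interval -0.35 to 0.02, limma adjusted p = 0.151). Smad5 (chr13:56703010-56742377, plus strand) read 6.74, 6.33 and 6.44 TPM in WT and 3.09 and 4.32 TPM in null samples. Scaled, its nearest samples were almost level, with 5.05 the lowest of WT and 4.99 the highest of null, and the log2 fold change was -0.11 (95% interval -0.30 to 0.08, limma adjusted p = 0.314). Smad4, the shared partner SMAD, had a scaled log2 fold change of -0.14 (limma adjusted p = 0.173). As deposited Smad1 and Smad5 had log2 fold changes of -0.68 and -0.69, against the median of -0.55 over all genes.

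Smad6 (chr9:63953076-64022059, minus strand), the inhibitory SMAD that BMP signalling itself induces, was the least abundant of the 9 genes. It read 1.43, 1.32 and 0.87 TPM in WT and 0.27 and 0.56 TPM in null samples. The groups did not overlap, but once scaled WT 3 was nearer to the higher null sample than to the other WT samples, at 0.788 against 1.07 and 1.08 in WT and 0.436 and 0.618 in null cells. The scaled log2 fold change was -0.37 (SE 0.109, limma adjusted p = 0.046). Smad6 reached the expression filter through WT samples alone, and its call was lost without the first or second WT sample, without either null sample and with the length and GC correction (-0.13, adjusted p = 0.359). As deposited it was at -0.64, only 0.09 below the median of -0.55 over all tested genes.

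Of the 10 intracellular inhibitors, all tested, 3 were lower and 0 higher after scaling, where 16.6% of all tested genes were lower and 14.1% higher. With the length and GC correction 0 were lower and 1 (Skil) higher. The 3 lower after scaling were Smad6, which passed the expression filter through WT alone, Ski and Smurf1. Ski binds SMADs and represses transcription, and Smurf1 is a ubiquitin ligase for SMAD1 and SMAD5. Ski read 17.85, 15.44 and 13.33 TPM in WT and 5.12 and 8.89 TPM in null samples, a scaled log2 fold change of -0.45 (limma adjusted p = 0.0131), and with the length and GC correction it was -0.20 (adjusted p = 0.0659). Its call was also lost without C3G null 1. Smurf1 changed by -0.26 (limma adjusted p = 0.0232), and by -0.05 with that correction (adjusted p = 0.647), and it did not pass without any one of the WT samples or without C3G null 2. Smad7, the other inhibitory SMAD, had a log2 fold change of -0.11 (limma adjusted p = 0.354).

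Within each sample, the Id genes and Bmp4 were set against Smad1 and Smad5, the SMADs of the same pathway, a ratio that no scaling of a sample can change. Id1 was 2.29, 2.73 and 2.40 times the sum of Smad1 and Smad5 in WT and 0.762 and 0.689 times in null samples, a log2 difference of -1.77. Id2 was 0.952, 1.10 and 1.01 times that sum in WT and 0.367 and 0.412 times in null samples. Id3 was 1.44, 1.62 and 1.56 times it in WT and 0.816 and 0.802 times in null samples. None of these ratios overlapped between the groups. They are not free of an effect of transcript length, since the Id transcripts are shorter than those of Smad1 and Smad5. With the length and GC correction the log2 fold changes were -1.90, -1.41 and -1.05 for Id1, Id2 and Id3. Those of Smad1 and Smad5 were -0.14 and -0.01. The log2 differences of Id2 and Id3 were -1.39 and -0.93, and with Bmpr1a and Bmpr2 as the denominator those of Id1, Id2 and Id3 were -1.74, -1.36 and -0.89. Bmp4 was 1.42, 1.52 and 1.42 times the sum in WT and 0.184 and 0.312 times in null samples, a log2 difference of -2.60. For each of these 4 genes the exact permutation test gave p = 0.2, the smallest possible. In contrast, Bmpr1a was 1.41, 1.49 and 1.40 times the sum in WT and 1.47 and 1.41 times in null samples, so that the groups overlapped (log2 difference 0.0020, exact permutation p = 1.0).

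The order of the 9 genes by TPM, which is per transcript length, changed accordingly. Id1 had rank 1 in all 3 WT samples and rank 3 in both null samples, and Bmpr1a went from rank 4 to rank 1. Bmp4 had rank 3 in WT and ranks 8 and 7 in the null samples, level with Bmpr2 in null sample 2. Id3 kept rank 2 and Smad6 rank 9 in every sample. In WT, Bmp4 and Bmpr1a were neighbours in this order that did not differ beyond their spread, at 15.5 ± 1.16 and 15.3 ± 1.14 TPM (SD, n = 3).

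**Figure D4:**
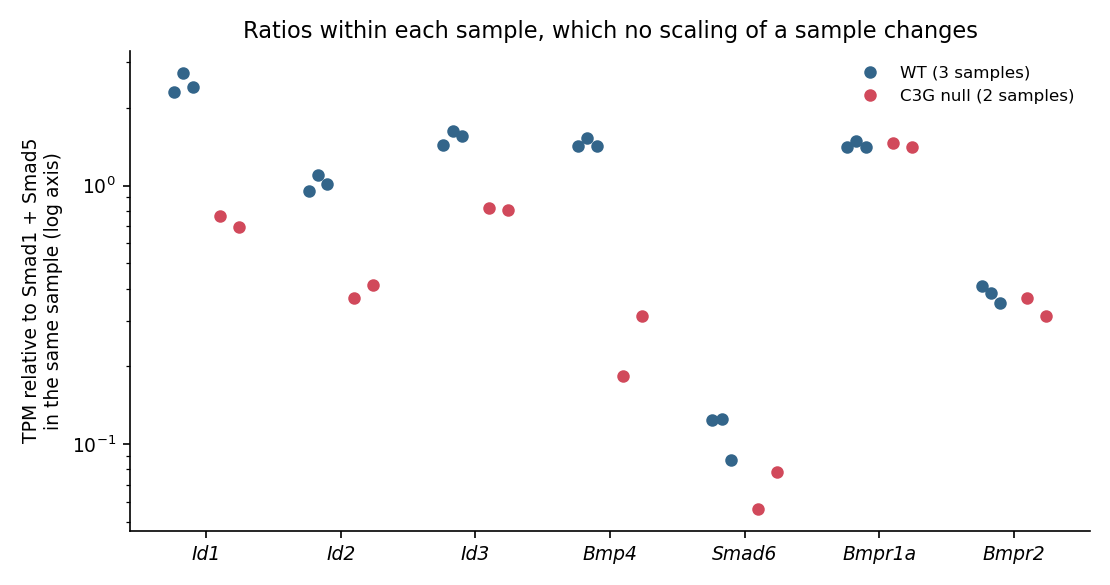
TPM of 7 genes divided by the sum of Smad1 and Smad5 in the same sample, on a log axis, in 3 WT (blue) and 2 C3G null (red) samples, each point a sample. Id1, Id2, Id3, Bmp4 and Smad6 are lower in both null samples than in all WT samples, whereas the Bmpr1a ratios of both groups lie between 1.40 and 1.49.

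The wider pathway was read from lists of 76 genes, of which 35 were tested and the other 41 stayed at or under 1.07 TPM or were not found under that symbol (Hjv). After scaling 14 were lower and 0 higher, and without the 9 genes 9 of 26 were lower, where 16.6% of all tested genes were. Of the 14, 3 (Smad6, Bmp8a and Bmp8b) had passed the expression filter through WT alone. As deposited 27 of the 35 were lower, where 56.8% of all tested genes were. With the length and GC correction 10 were lower and 3 (Acvr2b, Skil and Tcf3) higher, where 15.2% of all tested genes were lower and 14.2% higher. Leaving out the first null sample gave 11 lower, as did leaving out the second. Among 3 tested secreted antagonists, 1 was lower. This was Fstl1, a follistatin-like secreted protein, with 26.34, 25.56 and 22.59 TPM in WT and 6.68 and 10.24 TPM in null samples and a scaled log2 fold change of -0.83 (limma adjusted p = 0.000557). Of 11 other BMP target genes 3 were tested, and Zfp423, a zinc finger partner of SMAD1, was lower, from 12.54, 10.99 and 9.49 TPM to 3.10 and 4.36 TPM (-0.76, limma adjusted p = 0.000805). Dusp9, the phosphatase through which BMP lowers ERK activity in ES cells, had a log2 fold change of -0.38 (limma adjusted p = 0.0545). Tbx3, also tested, had one of 0.05 (limma adjusted p = 0.83).

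The E proteins are the partners that Id proteins hold. Of the 3 genes, Tcf12 was lower, with 13.13, 13.02 and 10.42 TPM in WT and 3.44 and 4.64 TPM in null samples (-0.79, limma adjusted p = 0.00116). Tcf3, which encodes E12 and E47, had a scaled log2 fold change of 0.18 (limma adjusted p = 0.0599). It passed as higher with the length and GC correction (limma adjusted p = 0.0044). Tcf4 did not pass, at 0.05 (limma adjusted p = 0.84).

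**Figure D5:**
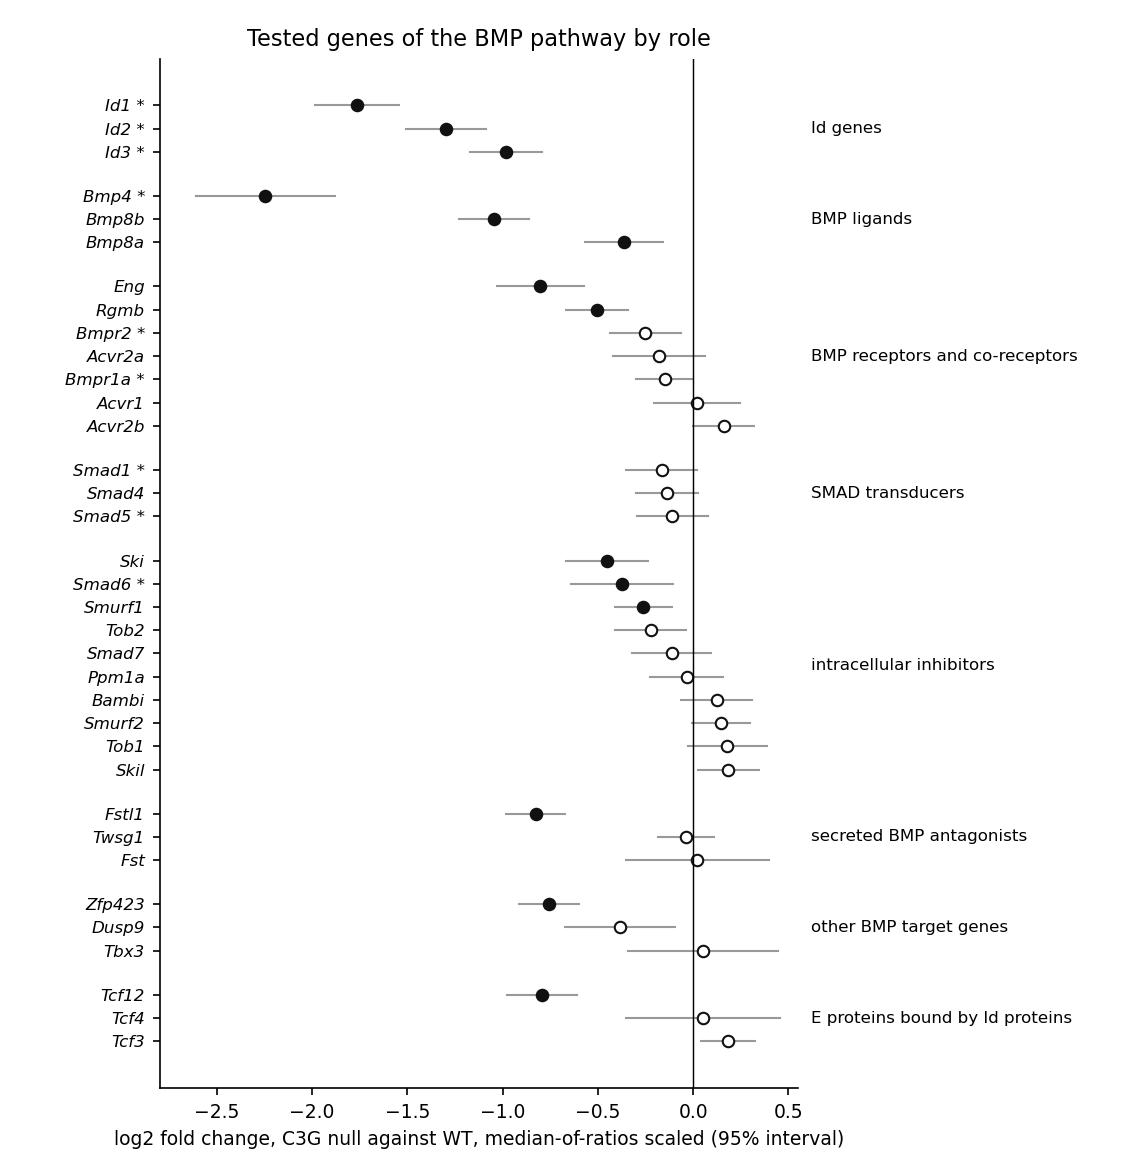
Scaled log2 fold change in C3G null against WT cells, with its 95% interval, of the 35 tested genes of the Id and BMP lists, grouped by role, filled where the limma adjusted p was below 0.05 and starred for the 9 genes described here. The Id genes and ligands are all filled and left of 0, and the 3 SMAD transducers are all open. Of the ligands, Bmp8a and Bmp8b passed the expression filter through the WT samples alone, so their calls lend no support.

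Markers of other cell types moved in the same samples. The summed TPM of 9 fibroblast and smooth muscle markers was 62.8 to 67.7 in WT and 4.44 and 7.97 in null samples, and after scaling 48.4 to 56.8 against 7.18 and 8.80. All 6 of those tested were lower after scaling, 3 without the first null sample and 5 without the second, led by Acta2 at -3.61 and Tagln at -3.42, and 0 of the 9 were at 0 in every sample. Acta2 and Col1a1 passed the expression filter through WT alone, so their calls lend no support. Tagln (32.31, 34.26 and 32.54 TPM) and Acta2 (16.88, 17.01 and 14.55 TPM) made up most of the sums in WT. Col1a1 stayed at or under 1.67 TPM, Col3a1 at or under 0.84 and Col1a2 at or under 0.39 in every sample. Of all tested genes, 16.6% were lower after scaling. The mesoderm marker T was lower at -1.15 (limma adjusted p = 0.0025), with 5 of the 6 mesoderm markers under 1 TPM in every sample. Of 6 trophoblast markers 3 (Cdx2, Krt7 and Tfap2c) were lower, of which Cdx2 and Krt7 also passed the filter through WT alone. Their summed TPM was 19.1 to 25.1 in WT and 6.69 and 10.7 in null samples, and after scaling 17.3 to 18.8 against 10.8 and 11.8. The 6 primitive endoderm markers summed to 4.09 to 5.06 TPM in WT and 4.12 and 8.31 in null samples, and after scaling to 3.66 to 3.79 against 6.66 and 9.17, which no longer overlapped. Dab2, the 1 of them tested, was higher by 0.69 on the log2 scale after scaling and did not pass as deposited, at 0.22 (limma adjusted p = 0.325). Of 6 neuroectoderm markers, Nes was lower, Tubb3 was higher after scaling but not as deposited (limma adjusted p = 0.315), and Neurog2 was at 0 in every sample. Their sums were 23.0 to 26.5 TPM in WT and 17.1 and 23.5 in null samples as deposited, and 19.3 to 20.9 against 27.7 and 25.9 after scaling, the opposite direction. Their part in the fall of the Id genes and Bmp4 was not tested.

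The genes whose pattern over the 5 samples was most like that of a given gene were found among 10831 protein-coding genes, by the root mean square difference of log2(scaled TPM + 1) after centring each gene on its mean. Nearest to Id1 were 2200002D01Rik (0.0423), Clu (0.0728), Tgm1, Plaur and Zyx (0.0828). Id2 was the 75th in this order, Bmp4 the 118th and Id3 the 202nd. Among the nearest to Id2 were Sugt1 (0.046), Mest, Efs and Dusp14 (0.0658). Bmp4 was followed most closely by Cryab (0.127), Wls, Tpm1, Pmp22 and Flnc (0.195). Cryab, Wls, Pmp22 and Flnc passed the expression filter through the WT samples alone, as did Clu, so their being near lends no support. Clu, Tgm1, Sugt1 and Efs are on chromosome 14, and of the 5 genes nearest to Bmp4 none is. The 5 samples form 2 groups, so genes that differ between the groups by a like amount are close in this measure, which is a description only.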

How the data were processed

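RNA was sequenced from 3 WT and 2 C3G null samples on a NovaSeq. Per the labels, the processing notes name bcl2fastq 2.20, FastQC 0.11.7, STAR 2.5.1b, RSEM 1.2.31 and the mouse build GRCm38 (mm10), without roles. The authors deposited transcript TPM to 2 decimals, which hold no read counts, so depth is unknown and no count test was run. Of 142647 transcripts, 141524 matched GENCODE M21 and were summed over 55147 gene symbols, and 1123 did not match and were left out. No sample column was left unused (0).

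Genes with at least 1 TPM in at least 2 samples (12518) were scaled by median of ratios, the kind of scaling used in the study's own differential expression method, and tested as log2(TPM + 1) with limma 3.58.1 (trend, R 4.3.3), with Benjamini-Hochberg adjustment over all genes. Scaling factors were 1.34, 1.22 and 1.10 for WT and 0.619 and 0.906 for null samples. Pairwise sample correlations of 0.958 to 0.987 showed no identical libraries. The fit was run on simulated data in which few genes changed and neither transcript length nor position had an effect. It checks the code only and lends no support to the results. Python 3.11.15, pandas 2.3.3, scipy 1.17.1, matplotlib 3.10.9 and mafft 7.526 were also used. Upstream sequences are from RefSeq GRCm38.p6 and coding sequences from GENCODE M21.

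The 9 genes, the lists and the tests were chosen with earlier results of these data known. Named besides the 9 were Rapgef1, in each pathway list the 2 genes that rose most and the 2 that fell most among those called, the 5 genes nearest in pattern to Id1, Id2 and Bmp4, and the 5 tested protein-coding neighbours on each side of Bmp4. 1 gene named by this rule is not reported here. Bmp8a, Smurf1, Smad4, Smad7, Dusp9, Tbx3, Tcf3, Tcf4, Acvr2b, Skil and the markers named were chosen after their values were seen. Alternatives were other scalings, pseudocounts of 0.1 and 5, other filters and variance models, leaving out each sample, a replicate block, a loess correction (span 0.5) for transcript length and GC content, and other thresholds.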

Additional observations from a re-analysis of the deposited data

How the results depend on the processing

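Id1, Id2, Id3 and Bmp4 passed in the same direction under every one of the 20 alternatives planned and the 6 added after the data were seen, with log2 fold changes of -2.38 to -1.32, -1.85 to -0.79, -1.60 to -0.71 and -2.74 to -1.36 over those planned. The added settings, all as deposited, gave -2.56 to -2.20, -2.11 to -1.59, -1.83 to -1.365 and -3.135 to -2.35. Smad6 lost its call in 11 of these settings and Bmpr2 gained one in 10, while the calls of Bmpr1a, Smad1 and Smad5 changed in 7, 4 and 3. Of the 9 genes, 9 were lower as deposited and 9 with TPM rescaled to the protein-coding total. As deposited, in settings added later, 6 were lower without WT 1, 5 without WT 2, 8 without WT 3 and 5 with the replicate block. The shares of all tested genes in these added settings were not counted. Leaving out each sample in turn gave 4 to 5 genes lower and 0 higher, where a lone C3G null sample is assumed to vary like WT. Smad5 alone changed sign, to 0.061 with the replicate block and the length and GC correction. Of all tested genes, 7109 were lower and 181 higher as deposited, 3732 and 707 with the protein-coding total, 1348 and 1122 with a filter of 5 TPM (at which Bmpr2, Smad1 and Smad6 were not tested), 1044 and 675 with a fold change beyond 0.5 on the log2 scale, and 2701 were higher at an unadjusted p below 0.05. Without each sample in turn 1338 to 1845 were lower, fewest without WT 2, and 891 to 1536 higher. Of the pathway genes 27 were lower as deposited, 23 with the protein-coding total and 11 to 13 without each sample in turn (0 higher), and 3 were higher with the length and GC correction, 1 with that correction and the block and 3 at an unadjusted p below 0.05. With the replicate block, Id1 was -1.76, Id2 -1.28, Id3 -0.95, Bmp4 -2.24 and Smad6 -0.45 (limma adjusted p = 0.0293). Same-numbered samples deviated from their group means with correlations of -0.180 and 0.181. With 2 null samples such correlations come in equal sizes of opposite sign, so they cannot tell whether the numbers pair the samples. The Id to Smad1 and Smad5 ratios kept their direction without each sample in turn, with log2 differences of -1.84 to -1.70 for Id1, -1.47 to -1.31 for Id2 and -0.97 to -0.89 for Id3. Without depth, counting error cannot be separated from other spread, which limits Smad6, Bmp8a and Bmp8b most. Where a value changed, the cause was not tested.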
